A study of Rattus norvegicus with 6 samples.

Results

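The origin recognition complex (ORC) was followed in replicating and quiescent rat β-cells through its 6 genes, *Orc1* to *Orc6*, of 20933 genes on the array that carry a RefSeq symbol. They were chosen by name: every non-control probe that the array assigns to a gene of the complex was taken, which gave 10 of the 45598 non-control probes. *Orc2* and *Orc3* had 2 probes each, *Orc4* had 3, and *Orc1*, *Orc5* and *Orc6* had 1. The 6 arrays came from 3 islet preparations of young adult male Wistar rats, each pooled from 4 animals. From every preparation 1 sample of replicating and 1 sample of quiescent β-cells was hybridised. Islets of both groups had been cultured overnight at basal glucose with EdU, a thymidine analogue that enters DNA during S phase. They were then dispersed, stained with the zinc dye Newport Green, fixed and permeabilised. Cells were gated on size, granularity and Newport Green signal. Those with EdU label were the replicating group and those without it the quiescent group. No genotype or drug separates the groups. By the study's counts, sorting gave far fewer replicating than quiescent β-cells, and less RNA. The RNA of both groups was amplified before hybridisation. A sample is therefore the RNA of a sorted pool of cells, and the label marks passage through S phase at any time in the culture rather than the phase a cell was in when it was sorted. In such pools a smaller number of cells that express a gene and a lower amount of its RNA per cell cannot be told apart.

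ORC binds DNA at replication origins and, with Cdc6 and Cdt1, loads the ring-shaped Mcm2-7 helicase onto chromatin before S phase. This step, called licensing, allows each origin to fire once per cell cycle. Orc1, Orc4 and Orc5 have the fold of AAA+ ATPases, Orc2 and Orc3 bind each other in the body of the complex, and Orc6 is a small subunit that joins it last and is needed for helicase loading. In proliferating mammalian cells Orc1 is made and degraded in each cycle, whereas the other subunits are more stable as proteins. Adult β-cells rarely divide, so most of them have no need to license origins at a given time.

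Each probe is an oligonucleotide of 60 bases, and what an array reads is the transcript that holds these bases. For each gene 1 probe is shown, that designed on the RefSeq transcript with a curated accession, to show which stretch the values of that probe refer to. For *Orc2*, *Orc3* and *Orc4* it is not the brightest probe, which stands for the gene in the counts below. All letters are in lower case because no base of a probe is set apart. Sequences were printed only for probes with a forward reading frame free of stop codons, and each of these has 1 such frame. Whether a probe lies in coding sequence or in an untranslated region was not determined here, since no annotation of the build was used.
Orc6: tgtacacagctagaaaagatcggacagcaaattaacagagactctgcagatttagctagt
Orc2: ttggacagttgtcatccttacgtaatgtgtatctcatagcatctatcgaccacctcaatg
Orc3: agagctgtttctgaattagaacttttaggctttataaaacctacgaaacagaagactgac
Orc1: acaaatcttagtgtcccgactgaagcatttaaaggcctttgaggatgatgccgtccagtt
Orc4: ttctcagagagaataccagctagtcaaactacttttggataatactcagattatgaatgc
Orc5: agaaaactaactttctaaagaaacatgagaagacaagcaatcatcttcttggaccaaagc
In the rat build rn4 the *Orc6* probe maps to chr19:23118702-23119778 and begins at base 805 of the transcript. It spans 1077 bases of the genome, so its parts lie apart there. The *Orc2* probe maps to chr9:57131284-57131343 (base 1280 of the transcript), the *Orc3* probe to chr5:51172294-51172353 (base 2043), the *Orc1* probe to chr5:129896830-129896889 (base 2021) and the *Orc4* probe to chr3:29813558-29813617 (base 1293). The *Orc5* probe maps to chr4:7990092-7995215 (base 1083) and also lies in separate parts, over 5124 bases. The other 4 ORC probes lie further along their transcripts: *Orc2* at chr9:57124989-57125048 (base 3399), *Orc3* at chr5:51170366-51170425 (base 3982), and *Orc4* at chr3:29811541-29811600 (base 3204) and chr3:29812352-29812411 (base 2959).

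Values are normalised log2 intensities, and a ratio is the replicating minus the quiescent log2 value, so that 1 is a doubling. A probe was called when limma, fitted with a term for each islet preparation, gave an unadjusted p of at most 0.05 and a log2 ratio of at least 1 in size, the selection the study itself used. By this rule 2023 of all 45598 probes (4.44%) were called higher and 1905 (4.18%) lower in replicating β-cells. With the same cut-offs the study reports larger numbers in both directions. It counts genes, whereas probes were counted here, with spots marked as outliers set to missing. From the scanner's processed signal, scaled to the 75th percentile, the split was 1089 higher and 4116 lower. No probe (0%) had a Benjamini-Hochberg adjusted p below 0.05 in limma, the lowest being 0.0977, while 4379 probes had an unadjusted p of at most 0.05. All ratios with an unadjusted p are therefore to be read with this background. The quiescent array of preparation 2 stood apart from the rest. Its median correlation with the other 5 arrays was 0.674, against 0.869 to 0.967 for the others, and 1583 of its spots were marked as outliers, against 252 to 299. The share of probes well above background was 96.4% and 98.5% on the quiescent arrays of preparations 1 and 2, and 80.8% to 87.3% on the other 4 arrays. The 6 proliferation genes read beside the labels, *Mki67*, *Pcna*, *Top2a*, *Cdk1*, *Ccnb1* and *Bub1*, were each called higher in replicating β-cells. Their log2 ratios were 1.68 to 4.72. The study lists *Top2a*, *Cdk1* and *Bub1* among the genes most upregulated on these same arrays. Their calls are therefore no independent check of the labels.

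Of the 6 ORC genes, *Orc6* alone was called higher by its brightest probe, and none was called lower. Counted by probe, 2 of 10 were called higher, the *Orc6* probe and the *Orc2* probe shown above, against 4.44% of all probes. These were also the probes that read higher in all 3 preparations, as 15.7% of the 44652 probes measured on each array did. In the same 2 probes every replicating array lay above every quiescent array, which held for 9.01% of all probes. None had an adjusted p below 0.05 in limma. By the brightest probe 5 of the 6 genes had a log2 ratio above 0, with a median of 0.68 over the complex, against -0.07 over all probes. The latter counts every probe and not 1 per gene, and it was -0.025 when dim probes were filtered out. Within preparations 1, 2 and 3 the median of the complex was 0.77, 1.35 and -0.01, where that of all probes was -0.02, -0.05 and -0.04. The complex stood above the middle of the array in preparations 1 and 2 and nearly level with it in preparation 3. Of the 10 probes, 9 were well above background on all 6 arrays, none had a spot marked as an outlier, and each was printed as 1 spot.

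**Figure D1:**
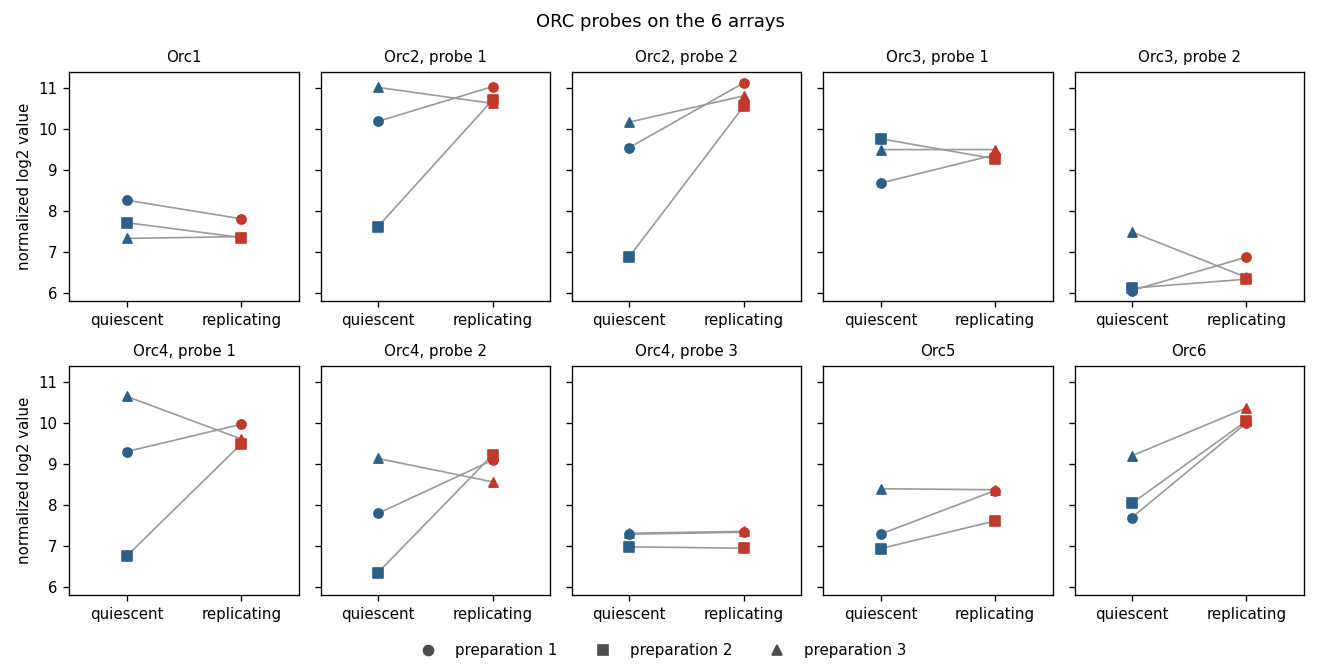
Normalised log2 value (vertical axis) of each ORC probe in quiescent (blue) and replicating (red) β-cells. Each point is 1 array, lines join the arrays of a preparation, probes of a gene are numbered from the brightest, and only *Orc6* and the second *Orc2* probe have all 3 replicating arrays above all 3 quiescent arrays.

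*Orc6* encodes the smallest ORC subunit, which is held more loosely than the rest and takes part in bringing the helicase to the origin. Its log2 values in replicating β-cells were 10.01, 10.06 and 10.37 in preparations 1, 2 and 3, and in quiescent β-cells 7.69, 8.04 and 9.20. The replicating arrays lay close together, and the groups did not overlap, the highest quiescent array being that of preparation 3. The means were 10.14 ± 0.20 and 8.31 ± 0.79 (SD, n = 3 each). The log2 ratio was 1.83 (SE 0.37, 95% interval 0.89 to 2.77), a 3.56-fold higher signal, with an unadjusted p of 0.00392 and an adjusted p of 0.475 in limma. By preparation the log2 ratio was 2.31, 2.01 and 1.17, the difference being smallest where the quiescent array was brightest. Among all probes the fitted ratio stood at percentile 98.7. *Orc6* was also called higher under each of 10 alternative settings, left-out preparations and scalings included, with log2 ratios of 1.59 to 2.16.

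*Orc2*, whose product pairs with Orc3 and is also known from centromeric heterochromatin, was read by 2 probes. The probe at base 1280 gave log2 values of 11.13, 10.56 and 10.82 in replicating β-cells of preparations 1, 2 and 3, and of 9.55, 6.88 and 10.17 in quiescent β-cells. Every replicating array was above every quiescent one, and the quiescent array of preparation 2 was far below the others. The log2 ratio was 1.97 (SE 0.64, 95% interval 0.35 to 3.59), a 3.91-fold higher signal, with an unadjusted p of 0.0258 and an adjusted p of 0.475 in limma. By preparation the ratio was 1.58, 3.68 and 0.64. Without preparation 2, which holds the array that stood apart, it was 1.11 with an unadjusted p of 0.0355, and the probe was still called. The call was lost without preparation 1 (log2 ratio 2.16, unadjusted p of 0.0750) and with no replicate block (1.97, unadjusted p of 0.0532).

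The second *Orc2* position, at base 3399, is the brighter probe and stands for the gene in the counts. It read 11.04, 10.71 and 10.63 in replicating and 10.19, 7.62 and 11.02 in quiescent β-cells. Here the groups overlapped, since the quiescent array of preparation 3 was above 2 of the replicating arrays. The log2 ratio was 1.18 (SE 0.70, 95% interval -0.61 to 2.98) with an adjusted p of 0.496, and by preparation it was 0.85, 3.09 and -0.39. The probes lie 6295 bases apart in rn4 and followed each other over the 6 arrays with a Pearson's r of 0.966. Even so, the ratio at base 3399 was lower than that at base 1280 by 0.73, 0.59 and 1.04 in preparations 1, 2 and 3. *Orc2* was thus called by 1 of its probes and not by the other. Without preparation 2 the ratio at base 3399 was 0.23, and without preparation 3 it was 1.97 and the probe was called (unadjusted p of 0.0380). With the median over its probes the gene's log2 ratio was 1.58 and it was not called (unadjusted p of 0.0601).

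*Orc3*, the partner of Orc2 in the complex and a contact site for Orc6, was also read at 2 positions. The brighter probe, at base 3982, gave 9.37, 9.27 and 9.50 in replicating β-cells and 8.68, 9.77 and 9.50 in quiescent β-cells. The groups overlapped, and the preparations went in different directions, with log2 ratios of 0.69, -0.49 and less than 0.01 above 0. The fitted ratio was 0.07 (95% interval -0.87 to 1.01, adjusted p 0.942 in limma), an interval that reaches a doubling in the upward direction. The sign turned without preparation 1, when the ratio was -0.25. The probe at base 2043 was well above background on 2 of the 3 arrays of each group. It read 6.87, 6.34 and 6.38 in replicating and 6.06, 6.12 and 7.49 in quiescent β-cells, with a log2 ratio of -0.02 (95% interval -1.21 to 1.16). The *Orc3* probes lie 1928 bases apart and had a Pearson's r of 0.289 over the 6 arrays, so they did not follow each other as the *Orc2* probes did.

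*Orc1*, the ATPase subunit whose level oscillates in dividing cells and which recognises a histone mark at origins, was the member with a ratio below 0 at its brightest probe. It read 7.81, 7.35 and 7.38 in replicating β-cells of preparations 1, 2 and 3, and 8.26, 7.72 and 7.33 in quiescent β-cells. The groups overlapped, and the replicating array was lower in preparations 1 and 2 and nearly level in preparation 3. The log2 ratio was -0.26 (SE 0.32, 95% interval -1.06 to 0.55) with an adjusted p of 0.701 in limma, and by preparation it was -0.45, -0.36 and 0.04. The interval includes 0 and a halving, and ends below a doubling. The fitted ratio stood at percentile 38.5 of all probes, and it stayed below 0 under each of the 10 alternative settings, between -0.78 and -0.16.

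*Orc4*, a further subunit with an ATPase fold, was read at 3 positions that differed among themselves. The brightest, at base 3204, gave 9.97, 9.49 and 9.61 in replicating β-cells and 9.30, 6.75 and 10.65 in quiescent β-cells. The quiescent arrays held both the highest and the lowest value, in preparations 3 and 2. The log2 ratio was 0.79 (SE 0.74, 95% interval -1.11 to 2.69, adjusted p 0.617 in limma), and by preparation it was 0.67, 2.74 and -1.04. Without preparation 2 its sign turned to give -0.19. The probe at base 1293 read 9.10, 9.22 and 8.57 in replicating and 7.80, 6.35 and 9.14 in quiescent β-cells, with a log2 ratio of 1.20 (95% interval -0.56 to 2.96). By preparation that ratio was 1.30, 2.88 and -0.57, the same order as at base 3204. It was called when preparation 3 was left out (log2 ratio 2.09, unadjusted p of 0.0161), and was 0.37 without preparation 2. These probes had a Pearson's r of 0.921 over the 6 arrays. The third position, at base 2959, read 7.34, 6.95 and 7.36 in replicating and 7.29, 6.98 and 7.31 in quiescent β-cells, level in every preparation, with a log2 ratio of 0.02 (95% interval -0.75 to 0.79). It did not share the low value of the quiescent array of preparation 2 that both other *Orc4* probes showed.

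*Orc5*, an ATP-binding subunit of the core, was read by 1 probe. Its log2 values were 8.35, 7.61 and 8.37 in replicating β-cells and 7.29, 6.94 and 8.40 in quiescent β-cells. Replicating values were higher in preparations 1 and 2 and level with quiescent ones in preparation 3, so the groups overlapped. The log2 ratio was 0.57 (SE 0.36, 95% interval -0.35 to 1.49, adjusted p 0.505 in limma), with 1.06, 0.68 and -0.03 by preparation. The fitted ratio stood at percentile 80.9 of all probes, and the interval includes both 0 and a doubling.

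**Figure D2:**
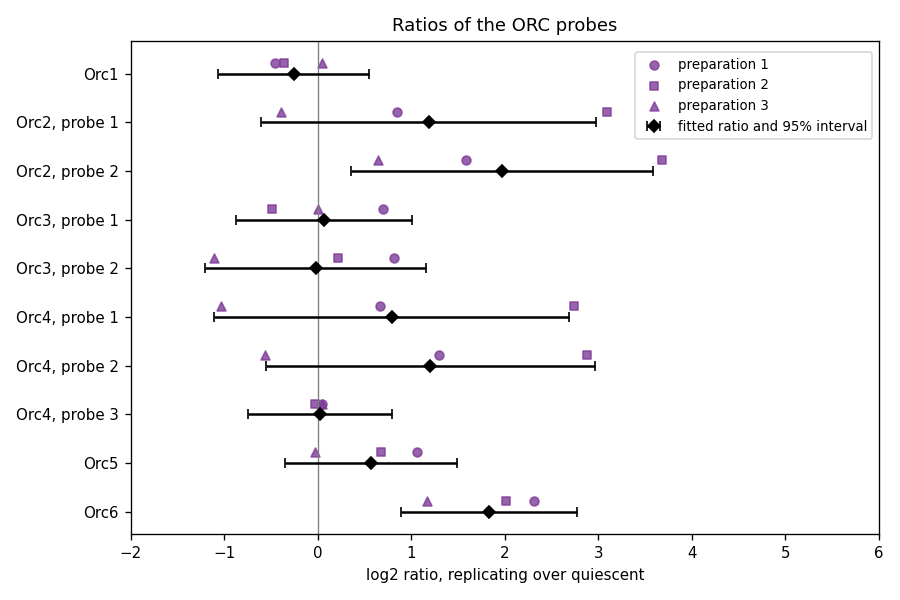
Log2 ratio of replicating over quiescent β-cells (horizontal axis) for the 10 ORC probes, by preparation (purple points) and as fitted over 3 preparations with its 95% interval (black). The intervals of *Orc6* (0.89 to 2.77) and of the second *Orc2* probe (0.35 to 3.59) lie above 0, and all others include 0.

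In 9 of the 10 ORC probes the range was wider among quiescent than among replicating arrays, the *Orc4* probe at base 2959 being the exception, and 85.8% of all probes showed the same. Over the 10 probes the range across 3 arrays was 0.23 to 0.76 in replicating β-cells and 0.33 to 3.90 in quiescent β-cells, on the log2 scale. In 6 probes the lowest quiescent value was that of preparation 2, and in 8 probes the highest was that of preparation 3. In 7 of 10 probes the ratio was lower in preparation 3 than in preparation 2. The share of all probes with these orders was not counted, so they are not shown to be particular to ORC. Without preparation 2 the log2 ratios at the *Orc2* positions 3399 and 1280 were 0.23 and 1.11, those at the *Orc4* positions 3204 and 1293 were -0.19 and 0.37, and that of *Orc6* was 1.74. With 1 probe per gene, the values of *Orc2* and *Orc4* had a Pearson's r of 0.976 over the 6 arrays. For *Orc4* and *Orc5* it was 0.828, for *Orc2* and *Orc5* 0.804, and for *Orc5* and *Orc6* 0.758. *Orc1* went the other way from *Orc6* and from *Orc3*, with an r of -0.70 and -0.66. *Orc3* had an r of -0.38 with *Orc2*, its partner in the complex. These r describe 6 arrays that share preparations and include the array that stood apart.

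**Figure D3:**
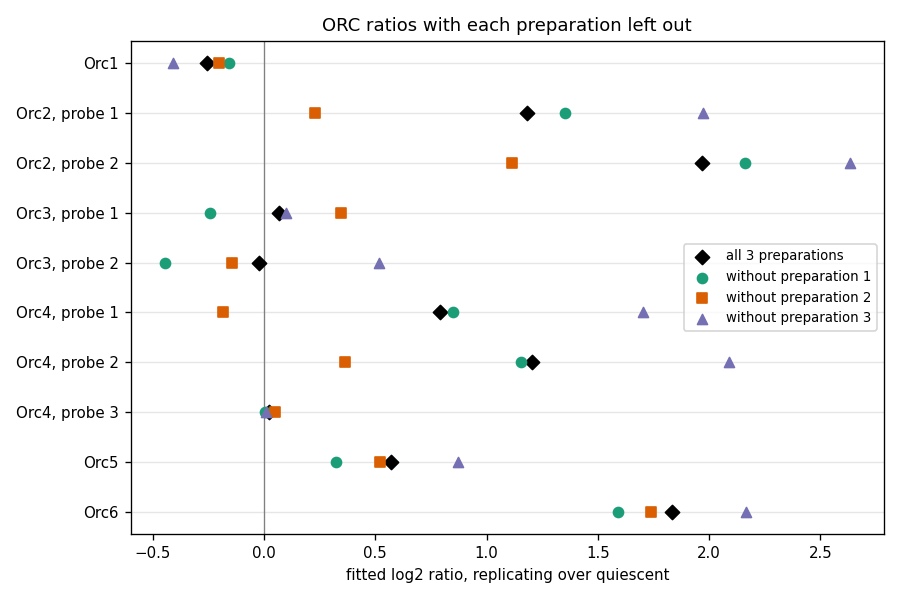
Fitted log2 ratio of replicating over quiescent β-cells (horizontal axis) for each ORC probe, with all 3 preparations (black) and with each left out in turn. *Orc6* stays between 1.59 and 2.16, whereas both *Orc2* probes and the first 2 *Orc4* probes are lowest without preparation 2 and highest without preparation 3.

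The ratio of *Orc6*, the member with the largest fitted ratio by its brightest probe, was set against that of each other member within each preparation. Since *Orc6* stood highest in these same values, a mean difference above 0 was fixed in advance. It exceeded that of *Orc5* by 1.25, 1.34 and 1.19 in preparations 1, 2 and 3, the steadiest of the 5 differences. It exceeded that of *Orc1* by 2.77, 2.38 and 1.12, and that of *Orc3* by 1.62, 2.51 and 1.17. Against *Orc2* the differences were 1.46, -1.08 and 1.56, and against *Orc4* 1.65, -0.73 and 2.21, so in preparation 2 these genes had the larger ratio. An exact two-sided sign-flip permutation test over the 3 preparations gave p = 0.25 for *Orc1*, *Orc3* and *Orc5*, the smallest it can give here, and 0.50 for *Orc2* and *Orc4*. Adjusted over the 5 pairs these were 0.417 and 0.50, a design too small to call any of the differences.

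The genes whose log2 values were most like those of each ORC gene over the 6 arrays were read from 15086 genes well above background on every array. For *Orc6* they were *Pacsin3*, *Vsig8* and *Jpt1*, with a Pearson's r of 0.992, 0.992 and 0.991. For *Orc2* they were *Lcor*, *Ddx3* and *Myo19*, all above 0.999, and for *Orc4* *Tgfbr1*, *Cltc* and *Mid1ip1*, all at 0.998. *Orc5* was most like *Plekhd1*, *Tmem184c* and *Ahctf1* (0.994, 0.994 and 0.993), *Orc3* most like *Usp32*, *Zbtb43* and *Nrbf2* (0.993, 0.990 and 0.987), and *Orc1* most like *Stat5b*, *Cxhxorf65* and *Icam2* (0.989, 0.980 and 0.977). With 6 arrays and so many genes, r near 1 is found for each member, and no ORC gene stood among the 3 genes most like another.

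The genes that work with ORC at the origin were read for comparison, by the brightest probe of each. The helicase loading list held 8 genes: *Cdc6* and *Cdt1*, which load the helicase with ORC, and the 6 subunits of the helicase itself. Of the 8, 6 were called higher and none lower, against 4.44% and 4.18% of all probes. The median log2 ratio of the 8 was 2.02, against 0.68 for ORC and -0.07 for all probes. The value for all probes was not limited to 1 probe per gene. The 6 called were the subunits of the helicase that ORC loads: *Mcm5* (3.62), *Mcm3* (3.13), *Mcm6* (2.40), *Mcm7* (2.32), *Mcm4* (1.73) and *Mcm2* (1.19). Further probes of *Mcm3* and *Mcm4* did not all pass, as 1 of *Mcm3* read 0.93 and 1 of *Mcm4* 0.89, both below the ratio the call requires. *Cdt1*, which brings the helicase to ORC, had a log2 ratio of 0.87 and an unadjusted p of 0.0348 in limma, short of the ratio the call requires. *Cdc6*, the ATPase related to Orc1 that joins ORC before loading, had a ratio of -0.13, with 0.61, -1.84 and 0.85 by preparation, and was well above background on 2 of 3 arrays of each group. Without preparation 2 the number called in this list was 4. The median of the helicase loading list, mostly subunits of the helicase itself, lay above that of ORC within each preparation. It was 1.74, 3.04 and 1.29, against 0.77, 1.35 and -0.01 for ORC, though this difference between lists was not tested.

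Of 11 genes that control licensing or the turnover of Orc1, 6 were called higher and none lower, with a median log2 ratio of 1.26. Over the whole array 4.44% of probes were called higher, a share by probe and not by gene. They were *Dtl* (3.15), a substrate receptor of the ligase that degrades Cdt1, *Ccna2* (2.71), *E2f2* (2.32), *Ccne1* (2.09), *Ccne2* (1.26) and *Gmnn* (1.20), which encodes geminin, the inhibitor of Cdt1. *Ccna2* was well above background on 2 and *Gmnn* on 1 of the 3 quiescent arrays. *Skp2*, part of the ligase that marks Orc1 for degradation, had a ratio of 0.63 and was not called. Of 6 chromatin partners of ORC, 1 was called higher, *Cbx5* (1.42), the heterochromatin protein HP1α that binds ORC, and without preparation 2 none was. *Lrwd1*, which encodes an ORC-associated protein, had a ratio of -0.29. Of 14 factors that fire origins after ORC has done its work, 8 were called higher and none lower, with a median of 1.40. *Cdc7* (3.55) and its activator *Dbf4* (2.45), *Cdc45* (3.14) and *Gins4* (2.23) had the largest ratios. *Gins4* and *Ticrr* (1.81), also called, lacked a value in preparation 2. ORC and its chromatin partners were thus the lists in which 1 gene was called, of 6 in each.

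**Figure D4:**
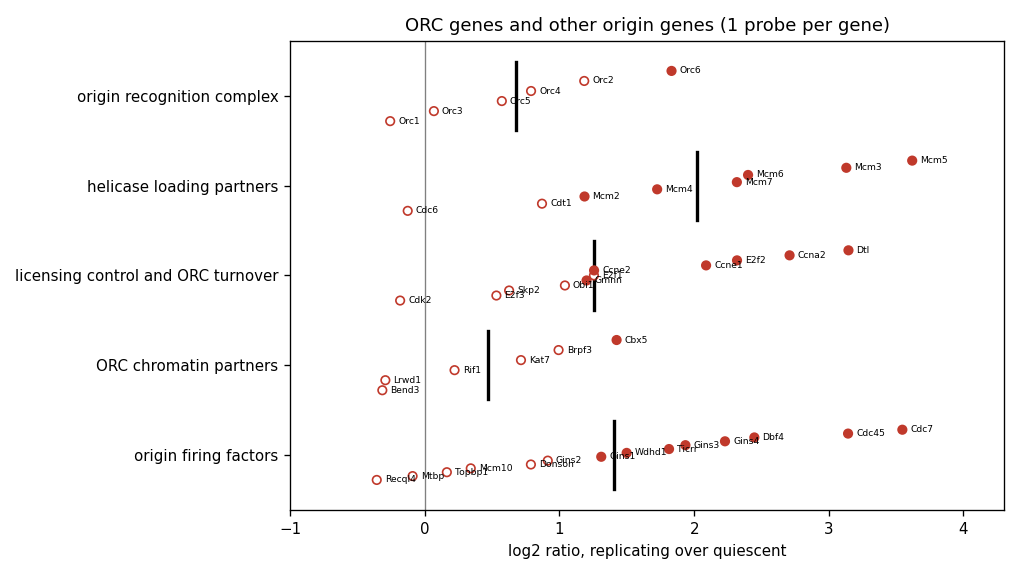
Log2 ratio of replicating over quiescent β-cells (horizontal axis) for the 6 ORC genes and 4 lists of genes that act with them, 1 probe per gene. Filled points were called higher, open points were not called, and bars mark list medians. ORC (median 0.68) has 1 filled point, and the helicase loading list (median 2.02) has 6, all of them subunits of the helicase.

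RefSeq promoter sequences of the assembly GRCr8 were at hand for 4 of the 6 genes, *Orc2*, *Orc3*, *Orc5* and *Orc6*. The 250 bases before each start were searched on both strands for an E2F site (TTTCCCGC, TTTGGCGC, TTTCGCGC or TTTGCCGC), a CCAAT box (CCAAT) and a CHR element (TTTGAA or TTTAAA), motifs known from cell-cycle promoters that do not overlap one another. The windows of *Orc6*, called higher, and of *Orc3* and *Orc5*, not called, are shown because they held a match. Capitals mark the match, written as it reads on the gene's strand.
Orc6: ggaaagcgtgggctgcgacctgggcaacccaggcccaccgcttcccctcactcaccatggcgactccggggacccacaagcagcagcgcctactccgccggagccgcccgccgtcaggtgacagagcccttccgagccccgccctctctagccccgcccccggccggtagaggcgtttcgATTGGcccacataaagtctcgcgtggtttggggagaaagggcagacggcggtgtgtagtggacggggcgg
Orc3: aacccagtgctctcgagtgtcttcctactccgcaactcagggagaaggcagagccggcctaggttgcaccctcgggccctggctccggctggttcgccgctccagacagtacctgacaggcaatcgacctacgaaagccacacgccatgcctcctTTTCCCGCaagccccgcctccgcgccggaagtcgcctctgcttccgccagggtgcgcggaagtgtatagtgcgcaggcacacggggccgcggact
Orc5: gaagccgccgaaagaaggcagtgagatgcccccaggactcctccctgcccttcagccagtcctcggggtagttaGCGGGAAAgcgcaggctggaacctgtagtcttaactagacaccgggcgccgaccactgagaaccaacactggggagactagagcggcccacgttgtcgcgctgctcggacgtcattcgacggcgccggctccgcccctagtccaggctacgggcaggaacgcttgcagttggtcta
The *Orc6* window (chr19:37938857-37939106, minus strand, 69.2% G and C) held 1 CCAAT box in reverse, 70 bases before the start. The *Orc3* window (chr5:53977795-53978044, minus strand) held 1 E2F site 95 bases before the start, and the *Orc5* window (chr4:13440083-13440332, plus strand) held 1 in reverse, 176 bases before the start. The *Orc2* window held none of these letters. Of the 33469 promoters of the same length, 1.7% held such an E2F site, 34.0% a CCAAT box and 25.4% a CHR element. A match is a description of the letters and not of a site in use.

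Markers of β-cells and of other cells the gate could hold were read beside these values. Of 10 β-cell markers 9 were on the array and well above background on all 6 arrays. None was called higher, and 1 was called lower, *Mafa* with a log2 ratio of -1.01. Over all probes 4.44% were called higher and 4.18% lower. Of the 9, 3 had a log2 ratio above 0, and the median was -0.56. *Ins1* and *Ins2*, among those 3, had ratios of 0.25 and 0.42. By quantitative PCR the study found insulin significantly lower in replicating β-cells. The summed linear signal of the β-cell markers was 274890 to 360920 in replicating and 175300 to 417440 in quiescent samples. The summed signal of markers of some other cells was higher in the replicating samples, though a sum is set mostly by its brightest genes. By staining, the study found most cells of both sorted β-cell fractions positive for insulin and for C-peptide. By quantitative PCR it did not detect amylase, a duct keratin, *Pecam1* or *Acta2*. It did detect glucagon, somatostatin and pancreatic polypeptide RNA in some samples, and more vimentin RNA in the replicating fraction. On the arrays *Amy2a3*, *Pecam1* and *Acta2* were well above background on all 6 arrays and were not called. Of 6 alpha cell markers 2 were called higher, with a sum of 22649 to 90650 against 5781 to 17573, and of 4 delta and PP cell markers 3 were, with 5190 to 9842 against 2120 to 4068. Of 10 fibroblast and stellate cell markers 3 were called higher (12963 to 37410 against 4713 to 6167), and of 5 immune cell markers 3 were (2402 to 3179 against 1270 to 1706). The ranges of these 4 lists did not overlap. Among single probes 9.01% had every replicating array above every quiescent one, and no such share was taken for sums. Higher in all 3 preparations were 3 of the 6 alpha, 4 of the 4 delta and PP, 5 of the 10 fibroblast and stellate and 5 of the 5 immune markers. Of all probes 15.7% were. Of 6 acinar markers 1 was called higher (5721 to 62384 against 2665 to 33149), of 5 duct markers 1 was (23539 to 27723 against 25963 to 35344), and of 5 endothelial markers none was (4089 to 9237 against 4892 to 14990). No listed marker was below background on every array. The part of these cells in the ORC values was not tested.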

How the data were processed

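RNA of replicating and quiescent β-cells from 3 islet preparations was read on 6 Cy3 arrays, all on 1 slide, so a slide block was not possible. The authors amplified it by whole transcriptome amplification and scanned the arrays with Agilent Feature Extraction, whose deposited files give intensity per spot. The deposited log2 values, made by the authors with normexp and quantile normalisation, supplied the main values. Its scale and centring were checked by recomputing it from the intensities with normexp at an offset of 50, and the largest difference was 0.000245. The number of arrays limits the precision.

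Control spots were left out, spots marked as outliers set to missing and spots of a probe averaged. Each of 45598 probes was fitted with limma 3.58.1 in R 4.3.3 (lmFit, eBayes) blocked by preparation, the paired test that the study's methods name; data.table (version 1.17.8) read the files. The labels and methods pair the samples. Across probes, the 2 arrays of a preparation deviated from their group means with a correlation of 0.0561, 0.242 and 0.258. For genes with more than 1 probe, that with the highest mean over all arrays stood for the gene. Positions are on rn4 per the file headers, and promoters come from RefSeq (GRCr8). The 4 lists of origin genes and the ORC genes themselves were chosen with earlier results of these data known. So were the proliferation genes and the β-cell, alpha, delta and PP, fibroblast and stellate, immune, endothelial, duct and acinar marker lists. The motifs were chosen after the promoters had been seen. All ORC probes are named, then listed genes that were called with the largest ratio first, and the 3 genes most like each ORC gene. *Cdt1*, *Cdc6*, *Skp2*, *Lrwd1*, *Ins1* and *Ins2* were named after their values were seen. *Amy2a3*, *Pecam1* and *Acta2* were named because the study measured them by quantitative PCR. Alternatives were another offset, 2 scalings, outlier spots kept, a filter on dim probes, no replicate block, an intensity trend and each preparation left out. Quantitative PCR was not analysed here.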

Additional observations from a re-analysis of the deposited data

How the results depend on the processing

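Of 99 values of single ORC probes under 10 alternatives, 89 kept their direction and their side of the selection, 6 turned sign, 2 gained a call and 2 lost it. The turned signs were those of the *Orc3* probe at base 2043 (0.22 with an offset of 0, 0.52 without preparation 3), the *Orc4* probe at base 2959 (-0.24 and -0.78 with normexp and processed signals scaled to the 75th percentile), the *Orc3* probe at base 3982 (-0.25 without preparation 1) and the *Orc4* probe at base 3204 (-0.19 without preparation 2). With a preparation left out, the ratio ranged from -0.45 to 0.52 and from -0.25 to 0.35 for these *Orc3* probes, and from -0.19 to 1.70 for the *Orc4* probe at base 3204. The cause was not tested. The processed signal moved the median of all probes to -0.44, and relative to it the log2 ratio of *Orc6* was 2.34 and that of the *Orc4* probe at base 2959 -0.34. The number of ORC genes called higher was 1 under every setting with all preparations and 1 to 2 with a preparation left out, the second being *Orc2* without preparation 3. Counting a gene when any of its probes was called, an alternative chosen after seeing the data, gave 2.

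Over all probes, 3179 were called higher and 3619 lower with normexp and the 75th percentile, 1089 and 4116 with the processed signal, and 518 to 5112 and 63 to 5633 with a preparation left out, which leaves fewer samples. In the unpaired fit with no replicate block 1879 were called higher and 878 lower, and the *Orc2* probe at base 1280 lost its call (unadjusted p of 0.0532). No other ORC call changed there. An adjusted p below 0.05 was reached by 0 probes as reported, 613 with normexp and the 75th percentile, 99 with no replicate block, 61 with an intensity trend and 84 without preparation 2, and by no ORC probe in any of these. The filter on dim probes removed the *Orc3* probe at base 2043. A difference near background could not be read for that probe.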
